A study of Mus musculus with 36 samples.

Results

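The MS4A genes lie next to each other on mouse chromosome 19, and different blood cells transcribe different members. The 7 genes described here were chosen by name from the 19 Ms4a symbols among the 40354 genes of the count tables. They are Ms4a1, Ms4a3, Ms4a4c, Ms4a6b, Ms4a6c, Ms4a6d and Ms4a7, taken as members known from B cells, granulocyte precursors and macrophages. Earlier results of these data were known when they were chosen, and Ms4a4a, also known from macrophages, is not among them. All 7 had counts, 6 had log2 normalized values (Ms4a3 had none), and 7 passed the low-count filter in wild-type and R35A cells against 6 in R35K cells, where Ms4a3 did not.

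MS4A proteins cross the cell membrane several times and many sit beside receptors of immune cells, where they can alter signalling. Ms4a1 encodes CD20, the surface protein of B cells that therapeutic antibodies bind. Ms4a3 marks progenitors shared by granulocytes and monocytes. Ms4a4c, Ms4a6b, Ms4a6c, Ms4a6d and Ms4a7 are transcribed in monocytes and macrophages.

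Bone marrow B cells of C57BL/6J mice received a retrovirus that carries C/EBPα fused to the estrogen receptor and a human CD4 reporter, and were grown on fibroblast feeders and enriched for the reporter. The factor was wild type (WT), R35A (arginine 35 replaced by alanine) or R35K (replaced by lysine), so all groups, the uninduced ones included, carry a retroviral C/EBPα. Cells were taken before estradiol (0 hpi), during the first day (at 1, 3, 6 and 18 hr after induction, or hpi) and as macrophages at 120 hpi, in medium with lymphoid and myeloid growth factors, with 2 libraries in each of the 18 groups. The growth of a viral pool on feeders, and an enforced factor that stays in the cells, limit what the groups model.

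Each library held between 13044456 and 23131776 counted reads. The 8 B cell markers summed to 3396 to 3734 CPM (counts divided by the TMM-scaled library size) at 0 hpi and to 68.9 to 140.1 CPM at 120 hpi, while 8 macrophage markers went from 55.4 to 63.8 to 20420.2 to 32172 CPM. The labels call the cells B cells up to 18 hpi, when the B cell list summed to 227 to 350.2 CPM. Collagens and other feeder fibroblast markers (7 genes) summed to 1842 to 2008 CPM at 0 hpi, 2716 to 3573 at 1 hpi, 2270.2 to 4607 at 18 hpi and 144 to 543 at 120 hpi, and their part in the results was not tested. Reads of Cebpa, which is also the introduced factor, stood at 43.0 and 38.5 CPM in wild-type, 39.7 and 34.9 in R35A and 39.0 and 37.0 in R35K libraries at 0 hpi. After induction the constructs parted, with means at 1 hpi of 103 CPM in wild-type, 54.2 in R35A and 89.5 in R35K cells. At 18 hpi the means were 38.7, 52.7 and 87.0 CPM. The part of these Cebpa levels in the results was not tested. T and NK cell markers (6 genes) did not exceed 1.41 CPM in any library.

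In mm10 the 19 Ms4a genes span 678.6 kb, with Ms4a1 (chr19:11249675-11266241) and Ms4a7 (chr19:11321039-11336146) on the minus strand. Ms4a4c (chr19:11404770-11427246), Ms4a6c (chr19:11469366-11482192) and Ms4a6b (chr19:11516512-11531256) follow on the plus strand. Ms4a6d (chr19:11586604-11604849) and Ms4a3 (chr19:11629496-11640851), the outermost gene on that side, are again on the minus strand. Since the paralogs resemble each other, 50-base windows of each member's transcripts were looked up in the transcripts of all other genes. Between 91.8% (Ms4a4c) and 100% (Ms4a3) of windows were found in no other gene for 6 members. For Ms4a6c this share was 48.6%, and 88.9% when the transcript BE692007, which overlaps its exons on the opposite strand, was left aside. BE692007 had 16 to 46 counts per library at 0 hpi and in wild-type cells up to 18 hpi and at most 837 in any library, against at least 4274 for Ms4a6c at 120 hpi. At 0 hpi it had 24 to 46 reads against 6 to 14 for Ms4a6c, so the base of every Ms4a6c fold is most open to this doubt.

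RefSeq promoters of GRCm38.p6 were found for 5 of the 7 members, Ms4a3, Ms4a4c, Ms4a6b, Ms4a6c and Ms4a7, but not for Ms4a1 and Ms4a6d. The 250 bases before each RefSeq start were searched on both strands for TTGCNNAA, a core of C/EBP sites, and AGGAAGT, a core bound by ETS factors such as PU.1, which do not overlap in letters. They are shown for Ms4a6c and Ms4a6b, which resemble each other, and for Ms4a4c, which rose with them. The Ms4a6b and Ms4a4c windows lie inside the gene spans given above, since RefSeq starts these genes downstream of the outermost annotated start. Capitals mark AGGAAGT or its reverse complement.
Ms4a6c, chr19:11469118-11469367, plus strand: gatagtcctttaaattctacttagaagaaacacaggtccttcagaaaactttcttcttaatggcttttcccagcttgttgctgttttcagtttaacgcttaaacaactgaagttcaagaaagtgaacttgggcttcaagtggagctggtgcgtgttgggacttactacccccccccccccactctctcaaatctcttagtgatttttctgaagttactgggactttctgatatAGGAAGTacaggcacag
Ms4a6b, chr19:11518309-11518558, plus strand: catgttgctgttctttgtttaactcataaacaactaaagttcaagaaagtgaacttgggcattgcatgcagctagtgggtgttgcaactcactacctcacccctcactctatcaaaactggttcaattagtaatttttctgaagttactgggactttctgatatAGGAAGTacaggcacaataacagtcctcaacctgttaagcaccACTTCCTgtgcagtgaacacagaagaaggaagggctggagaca
Ms4a4c, chr19:11407411-11407660, plus strand: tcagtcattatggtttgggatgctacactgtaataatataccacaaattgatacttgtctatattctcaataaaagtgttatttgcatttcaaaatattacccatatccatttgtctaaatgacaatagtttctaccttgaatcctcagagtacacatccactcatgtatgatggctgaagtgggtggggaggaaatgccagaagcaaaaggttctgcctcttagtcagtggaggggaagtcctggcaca
AGGAAGT began at base −17 from the RefSeq start in Ms4a6c and at base −86 in Ms4a6b, which also held the reverse complement at −43. It was absent from the windows of Ms4a4c and Ms4a3 and from those of Ms4a7, which start at chr19:11336147 and chr19:11334696. Of 32851 promoters, 7.686% hold AGGAAGT in this window and 9.564% hold TTGCNNAA, which none of the members' windows held. The Ms4a6c and Ms4a6b windows shared 148 of 180 aligned bases (82.2%). These matches are letters in a window and were not tested for binding.

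Ms4a1, the B cell member, fell within the first hour with every construct and was nearly undetected in the macrophages. Wild-type libraries held 33.8 and 32.8 CPM at 0 hpi, 6.11 and 5.39 after 1 hr, 2.74 and 3.42 after 3 hr, 2.09 and 2.03 after 6 hr and 0.765 and 0.984 by 18 hpi. R35A libraries went from 33.4 and 32.8 CPM at 0 hpi to 2.79 and 1.66 at 1 hpi, 1.16 to 1.81 at 3 and 6 hpi and 1.09 and 1.33 at 18 hpi. R35K libraries went from 34.2 and 28.4 CPM to 4.0 and 4.78, then 3.70 to 5.08, and 1.71 and 1.15 at 18 hpi. The 0 hpi values overlapped between constructs, no library after induction reached them, and at 1 hpi the R35A libraries lay below the others. At 120 hpi, 2 and 1 reads were left in wild-type, 1 and 2 in R35A and 0 and 5 in R35K libraries. In wild-type cells the level at 0 hpi was 242-fold, with an exact 95% interval of 82.4 to 1174 (counting error only), above that at 120 hpi.

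The log2 change of Ms4a1 from 0 to 1 hpi was −2.52 ± 0.11 (SE) in wild-type cells (adjusted p = 2.6e-26), −3.91 ± 0.12 in R35A cells (adjusted p = 3.4e-32) and −2.88 ± 0.14 in R35K cells (adjusted p = 6.2e-19). Between 1 and 18 hpi it changed by −2.72 ± 0.23 in wild-type, −1.60 ± 0.27 in R35K and −0.86 ± 0.25 in R35A cells (adjusted p = 0.00819 for the last), and the difference between these steps was not tested. The R35A call for that step ended without R35A 1 hpi replicate 1 or 18 hpi replicate 1. In these bulk samples, fewer cells with the transcript and less transcript per cell cannot be told apart. The summed B cell markers moved the same way from 0 to 1 hpi, from 3665 and 3734 CPM to 1691 and 1690.3 in wild-type libraries. They went from 3396 and 3424 to 519.9 and 514 in R35A libraries, and from 3524 and 3584 to 921 and 929 in R35K libraries.

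Ms4a3, the member of granulocyte and monocyte progenitors, was barely present. At 0 hpi the libraries had 6 and 6 reads in wild-type, 10 and 14 in R35A and 12 and 7 in R35K cells, that is 0.411 to 0.427 CPM in the first and up to 0.745 CPM in the second. From 1 to 18 hpi no library had more than 1 read, and at 120 hpi they had 1 to 3. At 1 hpi all libraries were at 0, so against a floor of 3 counts per library its level had dropped at least 2.28-fold in wild-type libraries, and was at least 4.20-fold lower than before induction in R35A and at least 3.00-fold lower in R35K cells. At 120 hpi the 0 hpi level was 2.28-fold, with an exact 95% interval of 0.692 to 9.71, above that of wild-type macrophages, an interval that includes no difference. For R35A cells the ratio was 5.92-fold, with an exact 95% interval of 1.80 to 30.7, and for R35K cells 6.97-fold, with an exact 95% interval of 1.68 to 61.7. The edgeR call in R35A cells at 120 hpi ended without R35A 120 hpi replicate 2 (adjusted p = 0.0581) and with DESeq2 (adjusted p = 0.135). Granulocyte progenitor and neutrophil markers (8 genes, such as Mpo and Elane) summed to 34.8 to 44.7 CPM at 0 hpi. Their sums were 2.10 to 3.8 CPM at 1 hpi and 9.18 to 20.6 at 120 hpi. In each group, 7 of the 8 exceeded 3 counts in a library at 0 hpi, 3 to 4 at 1 hpi and 2 to 4 at 120 hpi. Ly6g was at 3 counts or fewer at these times, Elane at 1 and 120 hpi, and Mpo at 1 hpi and in mutant macrophages.

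The 5 myeloid members stood below 4 CPM in every library before induction and between 204 and 745 CPM in the macrophage libraries. Ms4a6d, a macrophage member, held 0.549 and 0.570 CPM in wild-type libraries at 0 hpi, 12.7 and 12.1 after 1 hr, 6.09 to 7.90 over 3 and 6 hpi, 11.9 and 12.0 by 18 hpi and 474 and 501 as macrophages. In R35A libraries it held 0.403 and 0.692 CPM at 0 hpi, 62.6 and 61.8 after 1 hr, 59.8 to 77.6 over 3 and 6 hpi, 86.7 and 84.7 by 18 hpi and 694 and 745 as macrophages. In R35K libraries the values were 0.812 and 0.568, 130.4 and 131, 104 to 128, 127 and 122 and 673 and 661 CPM. The 3 constructs overlapped before induction and were fully apart from 1 to 18 hpi, in the order wild type, R35A, R35K. At 120 hpi the wild-type libraries lay below both mutants.

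Ms4a7, which is typical of mature macrophages, showed the widest gap between constructs. Wild-type libraries held 0.754 and 0.926 CPM at 0 hpi, 3.68 and 3.67 after 1 hr, 1.77 to 2.36 over 3 and 6 hpi, 4.40 and 5.15 by 18 hpi and 227 and 232 as macrophages. R35A libraries held 0.805 and 0.852, 42.6 and 41.3, 34.4 to 42.0, 43.2 and 44.7 and 421 and 459 CPM at the same times. R35K libraries held 0.580 and 0.568, 125 and 125, 85.6 to 94.6, 75.5 and 73.2 and 493 and 487 CPM. No library of one construct overlapped with another from 1 to 18 hpi. In R35K cells Ms4a7 was lower at 18 than at 1 hpi, with a log2 change of −0.74 ± 0.04 (adjusted p = 1.5e-15), whereas the same step was 0.07 ± 0.06 in R35A cells (adjusted p = 0.398).

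Ms4a6c held 0.823 and 0.926 CPM in wild-type libraries at 0 hpi, 10.6 and 9.57 after 1 hr, 11.7 and 12.7 by 18 hpi and 400.3 and 408 as macrophages. In R35A libraries it held 0.403 and 0.745, 32.1 and 31.1, 42.2 and 41.6 and 405 and 428 CPM. In R35K libraries it held 0.638 and 0.883, 57.1 and 58.2, 57.7 and 55.5 and 397 and 388 CPM. The order of the constructs from 1 to 18 hpi was that of Ms4a6d, but at 120 hpi the ranges of wild-type and R35A libraries overlapped.

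Ms4a6b, the myeloid member with the highest level before induction, hardly moved in wild-type cells during the first 6 hr. Wild-type libraries held 3.84 and 2.92 CPM at 0 hpi, 4.01 and 3.78 after 1 hr, 7.34 and 5.33 by 18 hpi and 318 and 345 as macrophages. R35A libraries held 3.15 and 3.14, 17.4 and 17.6, 25.7 and 23.7 and 483 and 519.8 CPM, and R35K libraries 3.42 and 3.91, 38.9 and 39.3, 41.2 and 40.6 and 457 and 484 CPM. Its log2 change in wild-type cells was 0.22 ± 0.19 at 1 hpi (adjusted p = 0.363), −0.33 ± 0.21 at 3 hpi (adjusted p = 0.189) and −0.22 ± 0.21 at 6 hpi (adjusted p = 0.381), and it first passed the test at 18 hpi, with 0.89 ± 0.17 (adjusted p = 1.1e-05). In R35A and R35K cells it had risen at 1 hpi by 2.45 ± 0.13 and 3.37 ± 0.09.

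Ms4a4c held 0.549 and 1.14 CPM in wild-type libraries at 0 hpi, 1.45 and 1.83 after 1 hr, 1.40 and 1.85 by 18 hpi and 319 and 336 as macrophages. R35A libraries held 0.470 and 0.213, 5.97 and 6.66, 6.61 and 6.65 and 204 and 223 CPM, and R35K libraries 0.754 and 0.946, 7.01 and 6.02, 13.2 and 16.3 and 263 and 265 CPM. It was the one myeloid member that was higher in wild-type than in both mutant macrophages. With every construct most of its rise came after 18 hpi. At that time it stood at 0.497% of its 120 hpi level in wild-type, 3.11% in R35A and 5.59% in R35K cells. Its early wild-type calls were weak. The log2 changes at 1, 3 and 18 hpi, 0.99 ± 0.32, 0.85 ± 0.33 and 0.96 ± 0.32, fell to 0.56, 0.41 and 0.52 without wild-type 0 hpi replicate 1 and no longer passed. They also no longer passed without replicate 2 of wild-type 1, 3 or 18 hpi, each for its own time (0.80, 0.67 and 0.74).

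**Figure D1:**
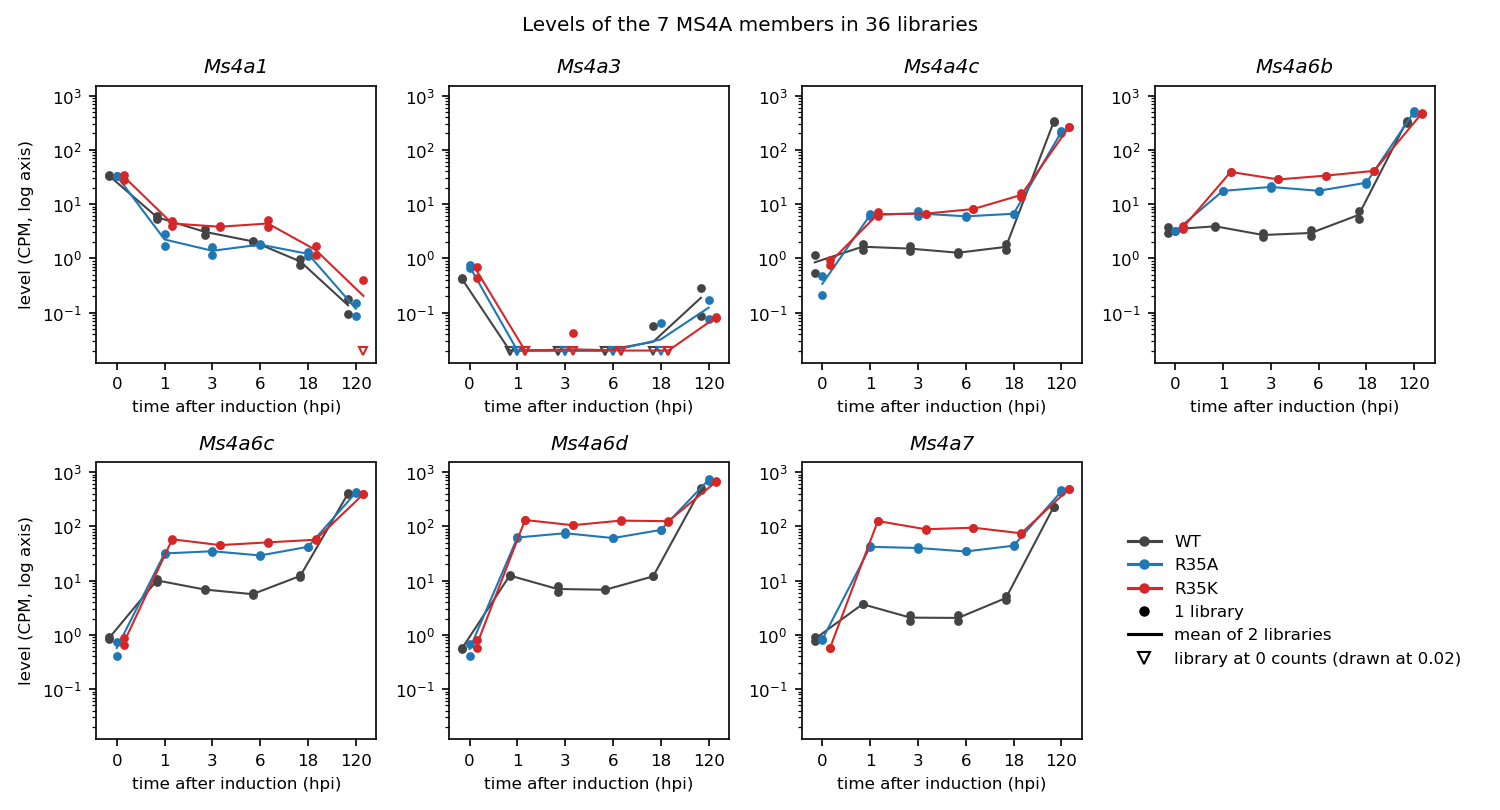
Level of each member in CPM (log axis) by time after induction, with 1 point per library, lines through the means of 2 libraries, and open triangles for libraries with 0 counts. Ms4a1 falls from 28.4 to 34.2 CPM at 0 hpi, Ms4a3 stays below 1 CPM, and the 5 myeloid members reach 204 to 745 CPM at 120 hpi with the mutants above wild type from 1 to 18 hpi.

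Counted over the members, wild-type cells changed 6 of 7 at 1 hpi (4 up, 2 down), with 19.9% of all genes tested called. At 3 hpi 6 of 7 changed against 23.5% of all genes, at 6 hpi 5 of 7 against 29.8%, at 18 hpi 7 of 7 against 47.1% (the Ms4a3 call, on 12 reads against 1, ended with DESeq2 at an adjusted p of 0.0987) and at 120 hpi 6 of 7 (5 up, Ms4a1 down) against 63.3%. A gene counts as called at a fold change of at least 1.5 with an edgeR adjusted p of at most 0.05. The median log2 change of the 7 members was 0.99 at 1 hpi and 7.96 at 120 hpi, beside −0.01 and −0.36 over all genes tested. Setting Ms4a3 to its bound or counted ratio left these medians as they were.

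In R35A cells 7 of 7 members changed at every time (5 up, 2 down), with 37.3% of all genes called after 1 hr, 36.8% after 3 hr, 37.7% after 6 hr, 42.6% by 18 hpi and 63.1% in the macrophages. The members' median was 4.22 at 1 hpi and 8.91 at 120 hpi, beside −0.01 and −0.31 over all genes. In R35K cells 6 of 6 tested members changed at every time (5 up, Ms4a1 down), with 32.9% of all genes called after 1 hr, 32.7% after 3 hr, 34.1% after 6 hr, 39% by 18 hpi and 63.8% in the macrophages. Their median was 4.78 at 1 hpi and 8.54 at 120 hpi, or 3.37 and 8.17 with Ms4a3 added at its bound or counted ratio, beside −0.04 and −0.28 over all genes.

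The rise from 0 to 1 hpi was steepest in Ms4a6d, Ms4a6c and Ms4a7. In wild-type cells the log2 changes were 4.47 ± 0.20 for Ms4a6d (adjusted p = 6.3e-25), 3.53 ± 0.18 for Ms4a6c (adjusted p = 1.5e-22) and 2.14 ± 0.25 for Ms4a7 (adjusted p = 4e-10). In R35A cells they were 6.74 ± 0.13, 5.69 ± 0.14 and 5.62 ± 0.13, with 4.22 ± 0.27 for Ms4a4c. In R35K cells Ms4a7 led, with 7.70 ± 0.10, before Ms4a6d (7.49 ± 0.09) and Ms4a6c (6.19 ± 0.11), while Ms4a4c changed by 2.88 ± 0.22. These SEs were derived from the test statistic and understate the error where reads at 0 hpi are few, such as 6 and 13 for Ms4a6d in R35A libraries. The summed macrophage markers moved the same way, from 55.4 to 63.8 CPM at 0 hpi to 936 and 931 in wild-type, 4222 and 4206 in R35A and 8887 and 8724 in R35K libraries at 1 hpi, and their part in the result was not tested.

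**Figure D2:**
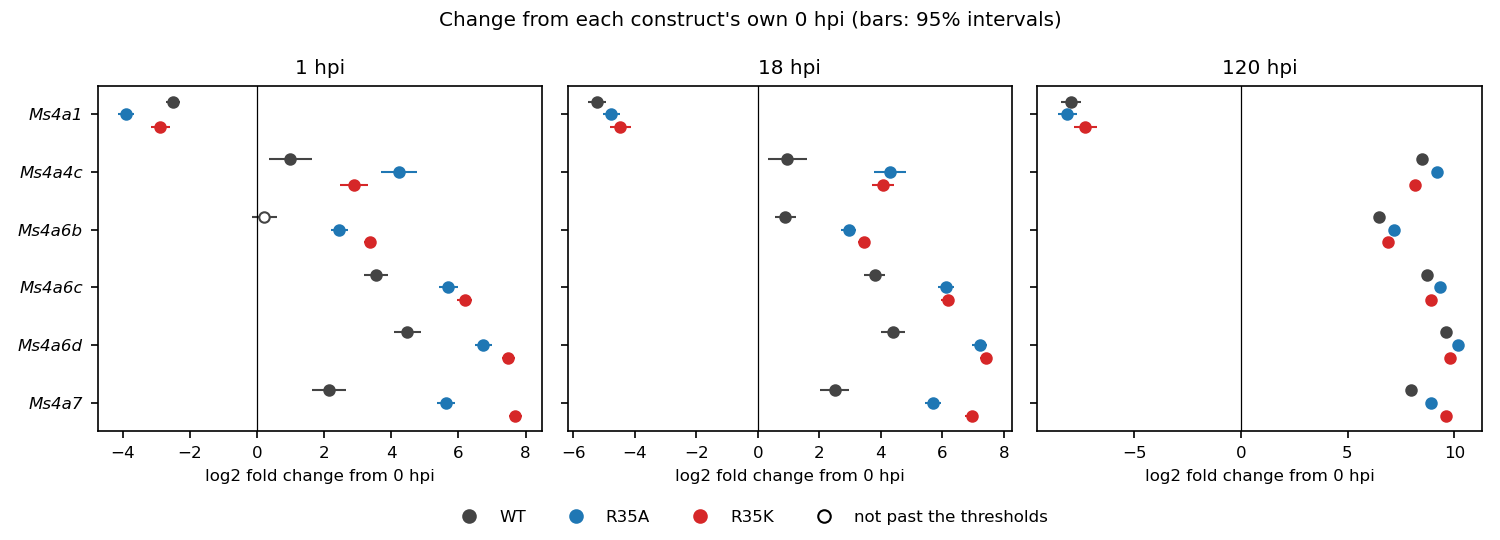
Log2 fold change from 0 hpi of the same construct at 1, 18 and 120 hpi for 6 members (Ms4a3, at 0 counts in several groups, is left out). Points are edgeR estimates with 95% intervals from the SE, and open points did not pass the thresholds. Where reads are few the bars are too narrow. For Ms4a1 in wild-type cells at 120 hpi (2 and 1 reads) the bar runs from −8.44 to −7.48. The exact counting interval of that fold, 82.4 to 1174, is wider. R35A and R35K lie to the right of wild type for the 5 myeloid members at 1 and 18 hpi, and the constructs draw together at 120 hpi.

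In wild-type cells Ms4a6d, Ms4a6c and Ms4a7 were lower at 3 and 6 hpi than at 1 or 18 hpi in every library, with means at the 4 times of 12.4, 7.0, 6.78 and 12.0 CPM for Ms4a6d, 10.1, 6.84, 5.62 and 12.2 for Ms4a6c and 3.67, 2.08, 2.05 and 4.78 for Ms4a7. These dips were not tested. Between 1 and 18 hpi, 2 of 7 members changed in wild-type cells (Ms4a6b up, Ms4a1 down) against 25.2% of all genes, and 1 of 7 in R35A cells (Ms4a1 down) against 5.62%. In R35K cells 3 of 6 changed against 9.27% of all genes, with Ms4a4c up by 1.18 ± 0.11 and Ms4a1 and Ms4a7 down. The wild-type call of Ms4a6b, 0.67 ± 0.16, was below 2-fold, and 1 member was left without wild-type 18 hpi replicate 1. From 18 to 120 hpi 6 of 7 members changed in wild-type cells against 60.5% of all genes, 6 of 7 in R35A cells against 53.9% and 6 of 6 in R35K cells against 53.3%, each with the 5 myeloid members up and Ms4a1 down. The log2 rise in this last step ran from 4.92 ± 0.06 (Ms4a6c) to 7.51 ± 0.10 (Ms4a4c) in wild-type cells. It ran from 2.97 ± 0.04 (Ms4a6d) to 4.90 ± 0.08 (Ms4a4c) in R35A cells and from 2.37 ± 0.04 (Ms4a6d) to 4.11 ± 0.07 (Ms4a4c) in R35K cells.

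As a share of each construct's own mean at 120 hpi, the level at 1 hpi was higher for Ms4a6d, Ms4a6c and Ms4a7 than for Ms4a6b and Ms4a4c. This share includes the level before induction, which for Ms4a6b in wild-type cells was 1.02% at 0 hpi. In wild-type cells Ms4a6d, Ms4a6c and Ms4a7 stood at 2.54%, 2.49% and 1.60%, and Ms4a6b and Ms4a4c at 1.17% and 0.501%. In R35A cells the same genes stood at 8.65%, 7.59%, 9.52%, 3.49% and 2.96%. In R35K cells they stood at 19.6%, 14.7%, 25.5%, 8.31% and 2.47%. Most of the final level was gained after 18 hpi for all 5 genes and all constructs. On the log2 scale the first hour covered more: 46.5% of the change from 0 to 120 hpi of Ms4a6d in wild-type, 66.3% in R35A and 76.5% in R35K cells, and 26.9%, 63.0% and 80.0% of that of Ms4a7. At 18 hpi the wild-type shares of the log2 change were 45.7% for Ms4a6d and 31.4% for Ms4a7, below what R35A cells showed at 1 hpi.

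**Figure D3:**
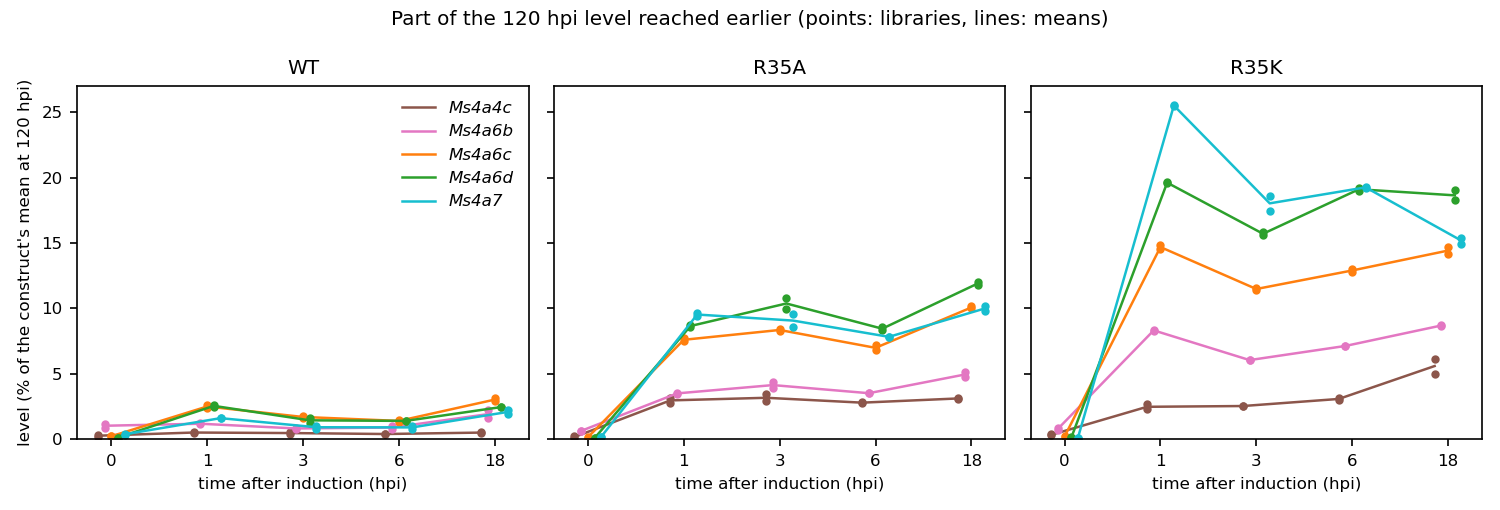
Level of the 5 myeloid members from 0 to 18 hpi as a percentage of the mean at 120 hpi of the same construct, with 1 point per library and lines through the means. After induction the group means reach 3.02% (Ms4a6c at 18 hpi) in wild-type, 11.9% (Ms4a6d at 18 hpi) in R35A and 25.5% (Ms4a7 at 1 hpi) in R35K cells.

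The study asks whether replacing arginine 35 changes the pace of the switch, so the change from 0 hpi was compared between constructs. Before induction no member was called between R35A and wild-type cells (edgeR, 0% of all genes, 0 members also with DESeq2 and limma), and 1 member, Ms4a4c, had an unadjusted p under 0.05 at a 1.5-fold difference. At 1 hpi 6 of 7 members differed against 14% of all genes, with the 5 myeloid members raised more and Ms4a1 lowered more by R35A. The differences in log2 change were 3.48 ± 0.42 for Ms4a7 (adjusted p = 1.7e-09), 3.22 ± 0.51 for Ms4a4c (adjusted p = 9.1e-07), 2.27 ± 0.47 for Ms4a6d (adjusted p = 0.00011), 2.23 ± 0.25 for Ms4a6b (adjusted p = 1.6e-10) and 2.16 ± 0.38 for Ms4a6c (adjusted p = 1.1e-05). For Ms4a1 the difference was −1.39 ± 0.20 (adjusted p = 6.2e-08). The Ms4a4c difference includes a lower start with R35A, with 7 and 4 reads at 0 hpi against 8 and 16 in wild-type libraries. Its mean levels at 1 hpi were 6.31 CPM in R35A and 1.64 in wild-type cells.

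The 5 myeloid members still differed at 18 hpi, while Ms4a1 did not pass the test after 3 hpi. At 3 hpi 6 of 7 members differed against 13% of all genes, at 6 hpi 5 of 7 against 10.3% and at 18 hpi 5 of 7 against 8.36%. Ms4a7 reached 4.25 ± 0.44 at 3 hpi and stood at 3.19 ± 0.42 at 18 hpi. For Ms4a1 the difference was −1.18 ± 0.25 at 3 hpi (adjusted p = 0.00016), −0.19 ± 0.25 at 6 hpi (adjusted p = 0.656, 95% interval −0.68 to 0.30) and 0.47 ± 0.33 at 18 hpi (adjusted p = 0.388). At 120 hpi 1 of 7 members differed against 14.5% of all genes. This was Ms4a6b, with 0.71 ± 0.21 (adjusted p = 0.00590), or 0.49 (adjusted p = 0.194) without wild-type 0 hpi replicate 1. Ms4a7 had a difference of 0.96 ± 0.37 (adjusted p = 0.0551, 95% interval 0.23 to 1.69). The differences at all times share their 0 hpi libraries, where the myeloid members other than Ms4a6b had at most 16 reads in wild-type and R35A cells. Limma on the authors' log2 values called 4 members at 120 hpi.

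R35K was compared with both other constructs in the same way, at 1, 18 and 120 hpi, using the same wild-type and R35A libraries as above. Its libraries come in tables of their own. A difference from the other constructs, in level or in the change from 0 hpi, therefore cannot be told apart from one between these sets of libraries. At 0 hpi no member was called against wild type (edgeR, 0% of all genes, 0 members at an unadjusted p under 0.05 with a 1.5-fold difference) or against R35A (0.00579% of all genes, 1 member at the unadjusted p), and DESeq2 called 0 in both. In the change to 1 hpi R35K and wild type differed in 5 of 7 members against 11.9% of all genes, all myeloid and all higher with R35K. The difference was 5.63 ± 0.44 for Ms4a7 (adjusted p = 4.8e-16), 3.22 ± 0.23 for Ms4a6b, 3.09 ± 0.44 for Ms4a6d, 2.73 ± 0.35 for Ms4a6c and 1.96 ± 0.44 for Ms4a4c. For Ms4a1 it was −0.29 ± 0.20 (adjusted p = 0.309, 95% interval −0.69 to 0.10). The Ms4a4c call ended without wild-type 0 hpi replicate 2, at 1.35 (adjusted p = 0.134). At 18 hpi the 5 myeloid members again differed, against 13.3% of all genes, with 4.49 ± 0.42 for Ms4a7. At 120 hpi Ms4a7 alone of the 7 did, against 10.1% of all genes, with 1.64 ± 0.37 (adjusted p = 0.00173).

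Between the alanine and the lysine replacement, 4 of 7 members differed in the change to 1 hpi against 5.83% of all genes. Ms4a7 rose more with R35K, by 2.10 ± 0.36 (adjusted p = 1.7e-05), as did Ms4a6b, by 0.94 ± 0.20 (adjusted p = 0.0002). Ms4a1 fell less with R35K, with a difference of 1.05 ± 0.24 (adjusted p = 0.00049). Ms4a4c had a difference of −1.31 ± 0.47 (adjusted p = 0.0427), which came with 7 and 4 reads in R35A against 13 and 15 in R35K libraries at 0 hpi and nearly equal levels at 1 hpi. That call ended without R35A 0 hpi replicate 2 (−0.79), R35A 1 hpi replicate 2 (−1.23), R35K 0 hpi replicate 1 or 2 (−1.47 and −1.14) or R35K 1 hpi replicate 2 (−1.20). Ms4a6d and Ms4a6c had differences of 0.77 ± 0.37 (95% interval 0.04 to 1.51) and 0.52 ± 0.35 (95% interval −0.17 to 1.21), neither past the threshold. At 18 hpi 1 of 7 members differed against 3.44% of all genes, Ms4a7 with 1.29 ± 0.36 (adjusted p = 0.0222), which was lost without any 1 of the 0 hpi libraries of either mutant (adjusted p of 0.0695 to 0.147), with the difference at 1.24 to 1.32. At 120 hpi no member differed (edgeR, 1.61% of all genes, 0 members with DESeq2 and 1 at an unadjusted p under 0.05 with a 1.5-fold difference).

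**Figure D4:**
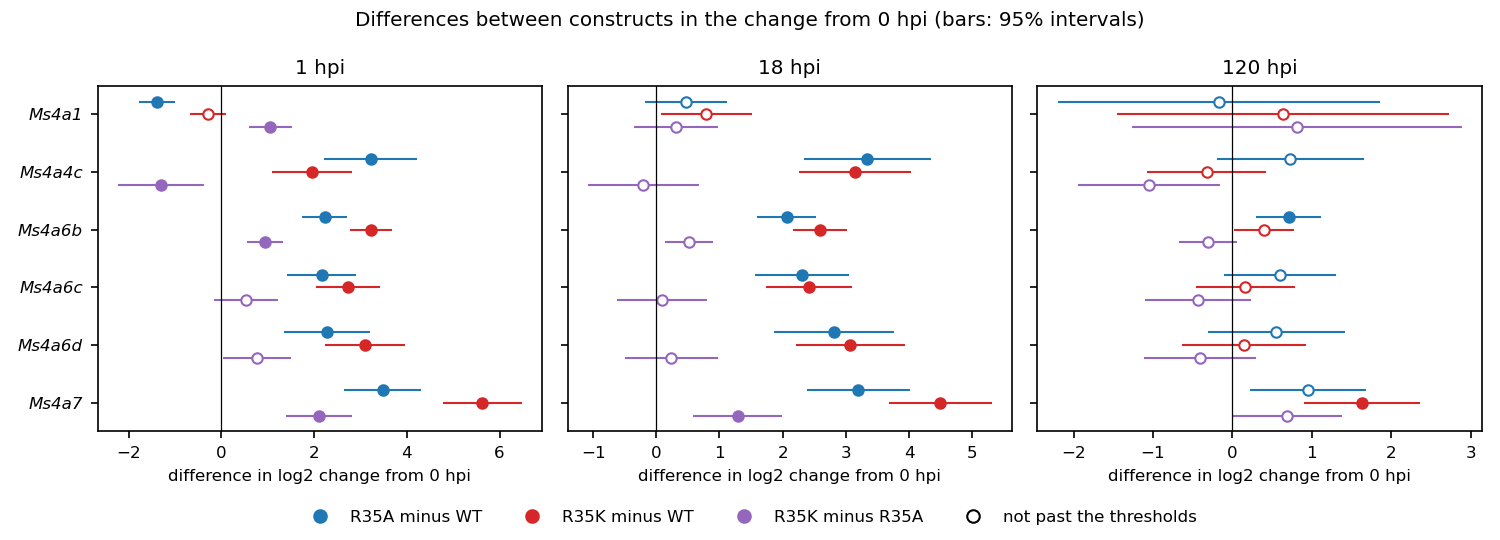
Differences between constructs in the log2 change from 0 hpi at 1, 18 and 120 hpi for 6 members, as edgeR estimates with 95% intervals (open points did not pass the thresholds). Both mutants exceed wild type for the 5 myeloid members at 1 and 18 hpi, and at 120 hpi the called differences are Ms4a6b (R35A minus wild type) and Ms4a7 (R35K minus wild type).

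Levels between genes were compared per kilobase of exon. At 120 hpi Ms4a6d was highest in every construct, with 281 ± 11.0 CPM per kb (SD, n = 2) in wild-type, 415 ± 20.5 in R35A and 384 ± 5.19 in R35K cells. Ms4a6c followed with 197 ± 2.80, 203 ± 8.10 and 192 ± 3.12 CPM per kb, and Ms4a4c with 187 ± 6.51, 122 ± 7.41 and 151 ± 0.780. Ms4a6b (74.0 ± 4.33, 112 ± 5.85 and 105 ± 4.20) and Ms4a7 (51.5 ± 0.740, 98.8 ± 6.00 and 110.1 ± 0.908) were lower. With the longest transcript as length, Ms4a7 stood above Ms4a6b in R35A macrophages, so the order of these neighbours depends on the length used. At 0 hpi Ms4a1 led with 5.38 ± 0.119 CPM per kb in wild-type cells, and Ms4a6b came next with 0.754 ± 0.145.

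Of the 12 other Ms4a genes, 5 had at most 3 counts in every library (Ms4a5, Ms4a12, Ms4a13, Ms4a15 and Ms4a18), and 6 passed the filter in wild-type and R35A cells. Ms4a4a, known from macrophages, was measured beside them. Wild-type libraries had 0.0686 and 0.641 CPM at 0 hpi, 3.94 and 3.67 at 1 hpi and 145 and 133 at 120 hpi, R35A libraries 0.335 and 0.479, 52.4 and 53.1 and 235 and 239.7, and R35K libraries 0.406 and 0.315, 119.8 and 124 and 230.0 and 231. Its change to 1 hpi differed between R35A and wild type by 3.51 ± 0.65 (adjusted p = 1.8e-05). Ms4a14 differed by 3.23 ± 0.83 (adjusted p = 0.00147), with mean levels at 1 hpi of 1.61 ± 0.321 CPM in wild-type, 26.5 ± 0.815 in R35A and 53.6 ± 1.02 in R35K cells. Ms4a8a was at 0 in both wild-type and both R35A libraries before induction and rose to 142 and 138 CPM at 120 hpi in wild-type cells, at least 669-fold higher, and to 157 and 169 in R35A cells, at least 919-fold higher (floor of 3 counts per library).

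Ms4a4b and Ms4a4d rose too, by 5.65 ± 0.30 and 2.71 ± 0.37 on the log2 scale at 120 hpi in wild-type cells. Ms4a2, the beta chain of the high-affinity IgE receptor of mast cells and basophils, had 3 and 5 reads at 0 hpi in wild-type libraries and 0 at 120 hpi, at least 1.01-fold lower against the floor of 3 counts per library. It was called up in wild-type cells at 3 hpi (1.35 ± 0.59) and 6 hpi (1.34 ± 0.59), with 6 and 18 and 10 and 13 reads. The mast cell and basophil list (7 genes) summed to 18.6 to 22.4 CPM at 0 hpi and 0.860 to 6.22 at 120 hpi, with its defining markers Fcer1a and Cpa3 at 3 counts or fewer in every group at 0, 1 and 120 hpi. Of the 6 other Ms4a genes tested, 5 were called up and Ms4a2 down at 120 hpi in wild-type and in R35A cells, where 63.3% and 63.1% of all genes were called. At 1 hpi 2 of the 6 (Ms4a4a and Ms4a14) differed between R35A and wild type, both higher with R35A, against 14% of all genes. For Ms4a8a, at 0 reads before induction with both constructs, this test gave no usable estimate (SE of 7010). It had 33 and 43 reads in R35A against 3 and 4 in wild-type libraries at 1 hpi. The related tetraspan genes Tmem176a and Tmem176b, which lie elsewhere, changed by 0.74 ± 0.07 and 0.70 ± 0.05 at 1 hpi in wild-type and 1.44 ± 0.07 and 1.19 ± 0.05 in R35A cells.

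**Figure D5:**
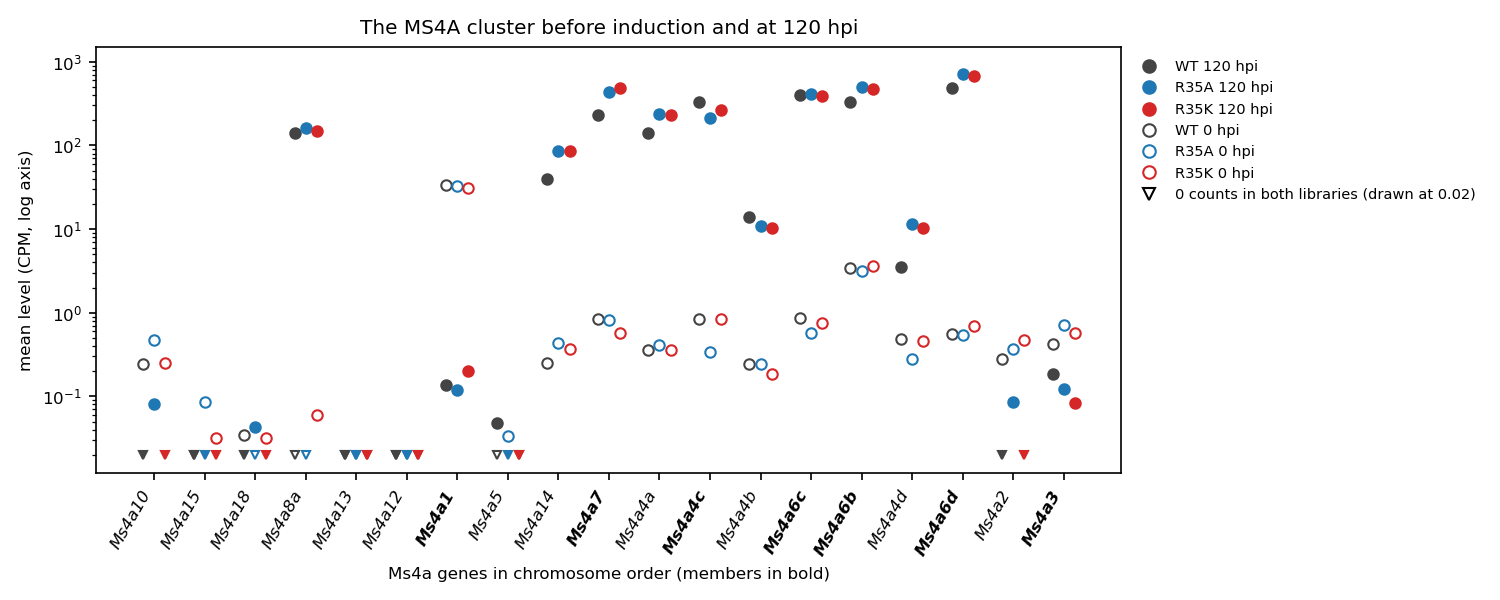
Mean level (CPM, log axis, 2 libraries each) of the 19 Ms4a genes in chromosome order before induction (open) and at 120 hpi (filled), with triangles for groups at 0 counts and members in bold. Filled triangles hide open ones where both times are at 0. Ms4a1 has the highest mean of the 19 at 0 hpi and Ms4a6d the highest at 120 hpi, with each construct.

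Genes outside the family on the same stretch of chromosome were counted in the same way. Of 41 other genes annotated among or within 500 kb of the Ms4a genes, 23 were tested. At 120 hpi 12 of them changed in wild-type (5 up, 7 down), 13 in R35A (5 up, 8 down) and 10 in R35K cells (3 up, 7 down), shares of 52.2%, 56.5% and 43.5% beside 63.3%, 63.1% and 63.8% of all genes. Ccdc86, the nearest tested gene on the side of Ms4a10 (13.0 kb away), changed by 0.20 ± 0.07 at 120 hpi in wild-type cells, and Mrpl16, a mitochondrial ribosomal protein gene 129.5 kb beyond Ms4a3, by −0.13 ± 0.08, neither past the 1.5-fold threshold. Other neighbours did change. Gm8369, which lies between Ms4a6c and Ms4a6b, was added after its values were seen. At 18 hpi it changed by −2.97 ± 0.18 in wild-type, −3.23 ± 0.19 in R35A and −2.54 ± 0.18 in R35K cells. Its changes at 120 hpi, −0.43 ± 0.14, −0.33 ± 0.13 and −0.16 ± 0.13, were below the 1.5-fold threshold. Chosen after their values were seen, Slc15a3 (103 kb beyond Ms4a10), a transporter gene, rose by 4.85 ± 0.05 in wild-type, 4.31 ± 0.05 in R35A and 4.43 ± 0.06 in R35K cells at 120 hpi, and Tmem132a (92.4 kb) by 2.79 ± 0.06, 1.78 ± 0.06 and 2.13 ± 0.06.

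The genes whose pattern was most like each member were sought among 12240 genes by Pearson correlation of log2 CPM over the 18 group means. These means share the time course and the libraries, so the values describe likeness only. Ms4a1 was most like Ly6d, Klhl14 and Rsph1 (r = 0.992, 0.992 and 0.989). Ms4a6d was most like Trem2, 4930430E12Rik and Slc11a1 (r = 0.998, 0.997 and 0.997), and Ms4a6c most like Pirb, Sirpa and Myo1f (r = 0.997, 0.997 and 0.997). For Ms4a7 they were Cyp4v3, Aoah and Cacna1d (r = 0.994, 0.992 and 0.991). Ms4a6b matched Fabp5, Maf and Pld4 (r = 0.996, 0.995 and 0.995) and Ms4a4c Nsf, Ctsc and Alpk1 (r = 0.993, 0.993 and 0.991). For Ms4a3, with few reads, they were Tle3, Gm47260 and Mipep (r = 0.974, 0.952 and 0.948). Among the members, Ms4a6c and Ms4a6d had r = 0.991, Ms4a4c and Ms4a6b 0.976, Ms4a6d and Ms4a7 0.979, and Ms4a1 with Ms4a6d −0.855. Of the 3 genes named for each member, Fabp5 for Ms4a6b was also among the top 3 by Spearman correlation and the others were not.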

How the data were processed

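RNA from 36 libraries (18 groups of 2) was sequenced by the authors as stranded, single-end reads. Per the labels and methods they used STAR 2.5.0a on mm10 and DESeq2 1.14.1. The strand setting and annotation release are not given in the sources used here. The deposited files hold raw counts per gene (40354 genes) and log2 normalized counts (19067 genes), in separate tables for wild type with R35A and for R35K. Here counts were filtered with filterByExpr, scaled with TMM and tested with edgeR 4.0.16 (quasi-likelihood test, R 4.3.3), with Benjamini-Hochberg adjustment over all genes tested: 24 wild-type and R35A libraries (16988 genes), 12 R35K libraries (16434) and all 36 (17277) for R35K against the others. The methods call the libraries of a group biological replicates, without saying at which step they were separated, and p-values measure the spread between them. That spread was small. Over 9765 genes, the median squared difference between the libraries of a group was 1.09 to 2.46 times what counting error alone gives. Whether the p-values cover differences between infections or animals is therefore not known. Limma 3.58.1 and DESeq2 1.42.0 served as alternatives. Tests were checked on simulated data. Intervals and floors (3 counts) cover counting error only. Named genes were the 7 members, the other Ms4a genes, Tmem176a and Tmem176b, the nearest tested gene on each side and, for likeness, the 3 genes with the highest correlation to each member. BE692007, Cebpa and cell type markers are named as checks, and Slc15a3, Tmem132a and Gm8369 were added after their values were seen. The members and lists were chosen with earlier results of these data known.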

Additional observations from a re-analysis of the deposited data

Results flagged for a closer look

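The change from 0 hpi differed between constructs by the interaction test in edgeR for the values below, given as differences in log2 change. All were tested across the genes of the fit with Benjamini-Hochberg adjustment. They share 0 hpi libraries within each pair of constructs, and values to the same 0 hpi are not independent of each other.

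R35A minus wild type came to −1.39 for Ms4a1, 3.48 for Ms4a7, 3.22 for Ms4a4c, 2.16 for Ms4a6c, 2.23 for Ms4a6b and 2.27 for Ms4a6d at 1 hpi. At 3 hpi it came to −1.18 for Ms4a1, 4.25 for Ms4a7, 3.46 for Ms4a4c, 2.87 for Ms4a6c, 3.01 for Ms4a6b and 3.38 for Ms4a6d. At 6 hpi it came to 4.07 for Ms4a7, 3.56 for Ms4a4c, 2.93 for Ms4a6c, 2.68 for Ms4a6b and 3.15 for Ms4a6d, and at 18 hpi to 3.19 for Ms4a7, 3.34 for Ms4a4c, 2.31 for Ms4a6c, 2.06 for Ms4a6b and 2.81 for Ms4a6d. At 120 hpi the remaining value was 0.71 for Ms4a6b.

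R35K minus wild type came to 5.63 for Ms4a7, 1.96 for Ms4a4c, 2.73 for Ms4a6c, 3.22 for Ms4a6b and 3.09 for Ms4a6d at 1 hpi. At 18 hpi it came to 4.49 for Ms4a7, 3.15 for Ms4a4c, 2.42 for Ms4a6c, 2.59 for Ms4a6b and 3.07 for Ms4a6d, and at 120 hpi to 1.64 for Ms4a7.

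R35K minus R35A came to 1.05 for Ms4a1, 2.10 for Ms4a7, −1.31 for Ms4a4c and 0.94 for Ms4a6b at 1 hpi and to 1.29 for Ms4a7 at 18 hpi.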

How the results depend on the processing

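Among changes from 0 hpi and differences between constructs in that change, no member called in the main fit reversed its direction under an alternative. Direction was not checked for the steps from 1 to 18 and 18 to 120 hpi, or for values not called in the main fit. Of 1962 alternative values of these called log2 changes, 1933 kept their direction and their side of the thresholds and 29 no longer passed. Of 506 alternative counts of members called, 488 stayed within 1.5 times the main count. Of the alternative levels, 146 stayed within 1 SD of the main value and 130 moved by more, under another length, scaling or the authors' log2 values. A 2-fold threshold left 1 member for wild-type 18 against 1 hpi, 0 for R35A 18 against 1 hpi and 0 for R35A minus wild type at 120 hpi. For the last, an unadjusted p gave 2 members and limma on the authors' log2 values gave 4. An unadjusted p gave 1 member for R35A against wild type at 0 hpi, for R35K against R35A at 0 hpi and for R35K minus R35A at 120 hpi, where the main counts were 0. Without a low-count filter, R35K minus R35A at 18 hpi had 0 members. Leaving out 1 library at a time gave 1 to 2 members for wild-type 18 against 1 hpi, 0 to 1 for R35A 18 against 1 hpi, 0 to 2 for R35A minus wild type at 120 hpi and 0 to 1 for R35K minus R35A at 18 hpi. The cause was not tested.

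The deviations of same-numbered libraries had a median correlation of −0.0063 over 153 pairs of groups, with 12 above 0.1 and a range of −0.489 to 0.278. These pairs mix groups of the same and of different constructs and were not split, so pairing within a construct was not tested. With the replicate number as a block the counts of members called ran from 0 to 7 and stayed within 1.5 times the main counts. DESeq2 size factors moved the median of all genes by −0.10 to 0.15 on the log2 scale. They turned the split of calls from 1670 up and 2612 down to 2426 and 2200 for wild-type 18 against 1 hpi, from 1539 and 764 to 1241 and 1094 for R35K minus wild type at 18 hpi, and from 717 and 290 to 555 and 392 for R35K minus R35A at 1 hpi. The DESeq2 Wald test gave 1873 and 1856 for the first and 1144 and 880 for the second. Limma on the authors' log2 values gave 2263 and 2160 for the first, and for R35A minus wild type it turned 899 and 1485 to 1145 and 1097 at 1 hpi, 939 and 1263 to 1141 and 915 at 3 hpi, and 724 and 1018 to 820 and 705 at 6 hpi. Low counts at 0 hpi limit the folds of the myeloid members, and low counts at 120 hpi those of Ms4a1 and Ms4a3.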
